A study of Mus musculus with 4 samples.

Results

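The 10 genes described here belong to the primitive endoderm and its basement membrane, and were followed in mouse embryonic stem cells with and without the Tet enzymes. The members, chosen by symbol, were the transcription factor genes Gata4, Gata6, Sox17 and Sox7, the receptor and uptake genes Pdgfra, Cubn and Dab2, and the matrix genes Col4a1, Col4a2 and Lama1. They are 10 of 22492 gene symbols in the expression tables, and each had a single interval on build mm9. The cells were the line E14Tg2a, an established mouse embryonic stem cell line. One genotype was unmodified (WT) and the other was TetTKO, in which Tet1, Tet2 and Tet3 had all been targeted by CRISPR in 2i medium and clones were picked. Both were moved for at least 17 days into 15% serum with 1000 units/ml of LIF, on gelatin, before harvest. Each genotype gave 1 whole-genome bisulfite library and 1 RNA library, so no difference has a replicate check and none was tested for significance. How many clones the TetTKO libraries hold, and whether the WT cells also passed through transfection, are not stated in the labels, so genotype and clonal history cannot be told apart.

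Primitive endoderm is the extraembryonic layer that lines the inner cell mass of the blastocyst and later forms the parietal and visceral endoderm of the yolk sac. Gata6 acts early in its specification under FGF signalling, and Gata4, Sox17 and Sox7 follow. The layer secretes a basement membrane, a sheet of laminin and type IV collagen on which epithelia rest. Embryonic stem cells descend from the neighbouring epiblast, and cultures in serum are known to hold a few cells that express primitive endoderm genes. The Tet enzymes oxidise 5-methylcytosine, and their loss removes a route to demethylation. The bisulfite method does not separate 5-methylcytosine from 5-hydroxymethylcytosine.

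Promoters of some members are shown first, picked for their range of methylation among those with a sequence at hand. Whether this methylation bears on the RNA of the members was not tested. RefSeq promoter sequences were at hand for 5 of the 10 members, with 6 start sites, since Dab2 has an upstream and an internal one. They come from GRCm38.p6 and were located on mm9 by the spacing of their CpGs among the CpGs with deposited values. Each is written 5′ to 3′ up to the base before the start site, and capitals mark the CpGs with deposited methylation. Pdgfra (chr5:75548026-75548275, plus strand) differed most between the libraries, but over only 3 CpGs with values and with overlapping read intervals. Cubn (chr2:13413504-13413753, minus strand) was methylated in both, and the internal start of Dab2 (chr15:6336498-6336747, plus strand) was almost free of methylation. For Col4a1 (chr8:11312827-11312856, minus strand) the 30 bases before the start are shown, which lie in the promoter region it shares with Col4a2.
Pdgfra: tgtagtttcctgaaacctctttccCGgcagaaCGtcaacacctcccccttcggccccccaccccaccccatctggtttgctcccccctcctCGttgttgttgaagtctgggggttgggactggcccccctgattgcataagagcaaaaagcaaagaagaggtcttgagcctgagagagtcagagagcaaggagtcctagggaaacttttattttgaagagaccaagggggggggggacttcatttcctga
Cubn: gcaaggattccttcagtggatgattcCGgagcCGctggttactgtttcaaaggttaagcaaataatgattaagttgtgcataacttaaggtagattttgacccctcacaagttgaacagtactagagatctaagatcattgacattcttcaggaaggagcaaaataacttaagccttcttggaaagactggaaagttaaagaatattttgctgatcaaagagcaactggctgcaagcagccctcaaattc
Dab2 internal start: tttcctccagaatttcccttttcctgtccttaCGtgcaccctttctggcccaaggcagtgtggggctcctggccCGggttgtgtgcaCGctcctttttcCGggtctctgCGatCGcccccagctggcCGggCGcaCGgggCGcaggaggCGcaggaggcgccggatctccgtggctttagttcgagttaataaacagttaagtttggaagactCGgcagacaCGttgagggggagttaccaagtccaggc
Col4a1: gcctcttaccCGCGcCGcagggtcctcccc

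The libraries themselves were as follows. The bisulfite files listed the same 14323377 CpGs, with 132794183 read calls in WT and 150132176 in TetTKO and a median coverage of 8 and 10. Expression is in FPKM, fragments scaled by transcript length and library size, and the depth of the RNA libraries is unknown. Tet1 had 15.1 FPKM in WT and 4.36 in TetTKO, Tet2 had 14.9 and 4.13, and Tet3 had 0.32 and 0.27, too little to judge the label. A gene-level value does not read a small CRISPR lesion directly. The 8 stem cell markers set for the check (Pou5f1, Sox2, Nanog, Zfp42, Esrrb, Klf4, Tdgf1 and Dppa5a) had between 16.3 and 3344 FPKM, with ratios of TetTKO to WT from 0.536 to 1.18, and none differed 2-fold. Esrrb (49.3 FPKM in WT and 26.4 in TetTKO) and Nanog (116 and 71.0) had the lowest ratios, with log2 differences of -0.88 and -0.70. Only Tdgf1 and Dppa5a stood higher.

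All 10 members had more RNA in the TetTKO library. In WT, 7 of them were under 1 FPKM, and in TetTKO only Sox7 was. The ratio of TetTKO to WT ran from 1.52 for Lama1 to 4.33 for Pdgfra. On the scale used for all genes, log2((TetTKO + 1)/(WT + 1)), which understates low genes, the members ranged from 0.23 to 1.82 with a median of 0.85, against a median of -0.01 over the 10984 genes with at least 1 FPKM in a library. Of the 9 members in that set, 4 were higher by 2-fold or more and 0 lower. Of all genes in the set, 1.77% were at least 2-fold higher and 0.847% lower. Gata4, Gata6, Sox17, Pdgfra, Cubn and Dab2 entered the set by their TetTKO value alone and so had to be higher, and 11.6% of the 526 genes that entered in this way were at least 2-fold higher. In bulk RNA, a change in the number of cells that express a gene and a change in RNA per cell cannot be told apart. The members were chosen with these values known, so the counts describe them and test nothing.

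**Figure D1:**
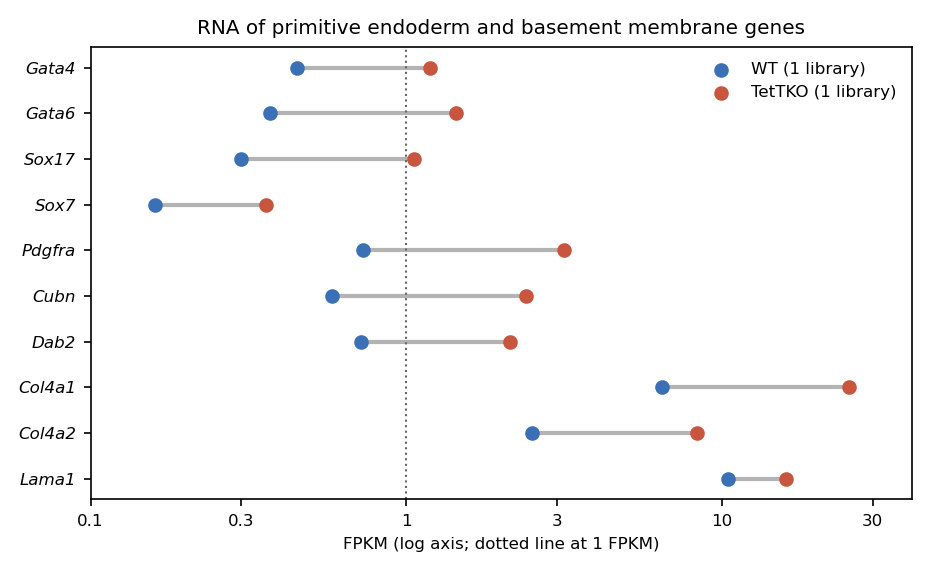
FPKM of the 10 members (log axis) in the WT library (blue) and the TetTKO library (red), 1 library each, with a dotted line at 1 FPKM. Every red point lies to the right of its blue point, and the gap is narrowest for Lama1 (10.5 and 15.95 FPKM) and widest, as a ratio, for Pdgfra (0.73 and 3.16 FPKM).

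The transcription factors were the least abundant members. On mm9 their deposited intervals were chr14:63817752-63864097 for Gata4, chr18:11052508-11085633 for Gata6, chr1:4481009-4486494 for Sox17 and chr14:64562543-64569569 for Sox7. Gata6, which is needed to set up the primitive endoderm, had 0.37 FPKM in WT and 1.44 in TetTKO, a ratio of 3.89. Gata4, a related zinc finger factor that acts after it, had 0.45 and 1.19 FPKM, a ratio of 2.64. Sox17, an HMG-box factor of endoderm, had 0.30 and 1.06 FPKM, a ratio of 3.53. Its close relative Sox7 had 0.16 and 0.36 FPKM, a ratio of 2.25, and stayed under 1 FPKM in both libraries. None of the 4 was 2-fold higher once 1 FPKM was added, with log2 differences of 0.59, 0.83, 0.66 and 0.23 in the order Gata4, Gata6, Sox17, Sox7. Their FPKM summed to 1.28 in WT and 4.05 in TetTKO, so even together they stood below Col4a1 alone in either library.

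Among the receptor and uptake genes the differences were larger in absolute terms. Their intervals were chr5:75548316-75594229 for Pdgfra, chr2:13197965-13413503 for Cubn and chr15:6249789-6390709 for Dab2. Pdgfra, the receptor for PDGF ligands and a widely used surface marker of primitive endoderm, had 0.73 FPKM in WT and 3.16 in TetTKO. Its log2 difference of 1.27 exceeded that of 99.2% of genes with at least 1 FPKM in a library. Pdgfra entered that set by its TetTKO value alone and so had to be higher, which raises this rank. Cubn encodes cubilin, the endocytic receptor that visceral endoderm uses to take up nutrients. It had 0.58 and 2.40 FPKM, a log2 difference of 1.11. Dab2, an adaptor that links such receptors to clathrin, had 0.72 and 2.13 FPKM, a ratio of 2.96, and its log2 difference of 0.86 fell short of 2-fold. The partners of Cubn on the list set for this uptake route went partly the same way. Of 21 such genes, 19 were measured, 12 of these stood higher, and none differed 2-fold. The median over the list was 0.12. Its most abundant gene was the clathrin adaptor subunit gene Ap2s1, with 101 and 97.4 FPKM. Amnionless (Amn), which anchors cubilin at the membrane, had 2.04 and 4.96 FPKM, and megalin (Lrp2), the co-receptor of cubilin, had 5.51 and 11.8, log2 differences of 0.97 each.

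The matrix genes carried most of the RNA. Their intervals were chr8:11198423-11312826 for Col4a1, chr8:11312829-11449287 for Col4a2 and chr17:68046605-68171985 for Lama1. Col4a1, the alpha-1 chain of type IV collagen, had 6.44 FPKM in WT and 25.4 in TetTKO, a ratio of 3.94. Its log2 difference of 1.82 was above that of 99.8% of genes with at least 1 FPKM in a library. Col4a2, the alpha-2 chain that joins it in the same trimer, had 2.50 and 8.34 FPKM, a ratio of 3.34. The chains are transcribed from a shared promoter in opposite directions, and per transcript length Col4a1 exceeded Col4a2 by 2.58 times in WT and 3.04 times in TetTKO. Lama1, the alpha-1 chain of the laminin of early embryos, had 10.5 and 15.95 FPKM, a ratio of 1.52. Lama1 was the most abundant member in WT, at 1.63 times Col4a1, and in TetTKO it stood at 0.629 times Col4a1. These were the only members with at least 1 FPKM in WT. Col4a1 and Col4a2 were at least 2-fold higher, against 1.27% of the 10458 genes of that kind.

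**Figure D2:**
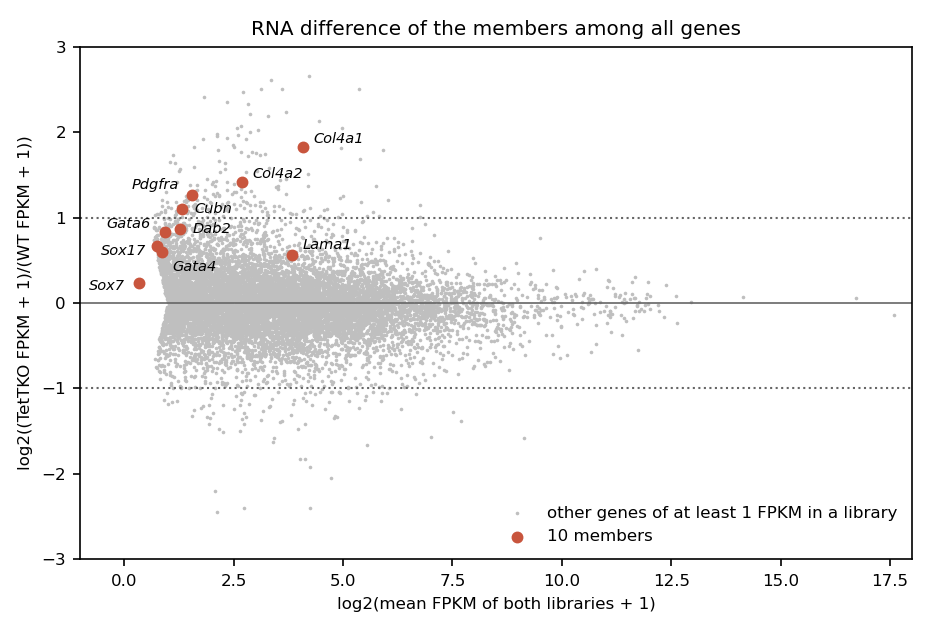
Log2 difference in RNA (y axis, 1 FPKM added) against log2(mean FPKM of both libraries + 1) for genes with at least 1 FPKM in a library (grey) and the 10 members (red), with dotted lines at 2-fold. Col4a1, Col4a2, Pdgfra and Cubn lie above the upper line, and all 10 members lie above 0.

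The other genes of these pathways had lower list medians than the members, with single genes at similar differences. Whole-list medians include genes under 1 FPKM, which the scale understates. Over genes of at least 1 FPKM in a library, the members had a median of 0.86. The wider extraembryonic endoderm list had 0.58, basement membrane receptors 0.53 and other basement membrane components 0.40. Collagen processing had 0.32, FGF and PDGF signals 0.21 and the uptake partners 0.12. Of the lists of other cell types, fibroblast had 0.69, trophoblast 0.49, endothelium 0.37 and primitive streak -0.16. Of all genes of at least 1 FPKM in a library, 48.9% stood higher in TetTKO. The list of 29 other basement membrane components had 15 genes of at least 1 FPKM in a library, here called measured, of which 12 stood higher and none differed 2-fold, with a median of 0.17 over the whole list. Among those under 1 FPKM in both libraries were low values with ratios like the members', such as Lama4 (0.13 and 0.55 FPKM), Col4a5 (0.11 and 0.48), Npnt (0.10 and 0.44), Lama3 (0.18 and 0.63) and Lamb3 (0.20 and 0.50). Its most abundant gene was Col18a1, with 78.9 FPKM in WT and 88.8 in TetTKO. Lamb1 and Lamc1, the beta and gamma chains that assemble with Lama1, had 21.9 and 38.6 FPKM and 16.4 and 24.2 FPKM, and Nid1, which bridges laminin and collagen, had 11.0 and 8.59. Of 19 genes for collagen modification and secretion, 13 were measured, 8 stood higher and none differed 2-fold. The most abundant was P4hb, a subunit of the prolyl hydroxylase, at 238 and 239 FPKM, while the collagen chaperone gene Serpinh1 had 21.4 and 40.4 and the lysyl hydroxylase gene Plod2 15.8 and 31.9. Lox, a lysyl oxidase gene, had 0.05 and 0.35. Among 15 basement membrane receptor genes, 9 were measured and 8 of these stood higher, but only Itga3, the alpha-3 integrin that binds laminin, passed 2-fold, with 5.46 and 12.2 FPKM. Itgb1, the common beta chain and the most abundant of that list, had 43.7 and 50.8.

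In the wider list of extraembryonic endoderm genes, 13 of 31 were measured and 11 of these stood higher, with a median of 0.32 over the whole list. The proteoglycan gene Srgn (3.20 FPKM in WT and 8.11 in TetTKO) and the activin antagonist gene Fst (0.86 and 2.88) were at least 2-fold higher. Just under that size were Cited1, a transcriptional co-regulator gene (0.57 and 2.10), and Dkk1, a WNT antagonist gene (0.39 and 1.58). The measured genes that stood lower were Apoe, the apolipoprotein gene and most abundant of the list, with 300.3 and 114 FPKM, and Foxa3, with 1.37 and 0.54. Among genes of the visceral endoderm, Afp (0.03 and 0.04 FPKM), Ttr (0.02 and 0.27), Apob (0.10 and 0.39) and Hnf4a (0.29 and 0.26) were under 1 FPKM in both libraries. Amn and Lrp2, also on this list, were above 1 FPKM in both and higher in TetTKO, at the values given above. The fate signals upstream went partly the same way as the members. Of 21 FGF and PDGF genes 16 were measured and 11 stood higher, with a list median of 0.11. The epiblast ligand gene Fgf5 passed 2-fold, at 0.07 and 1.19 FPKM. The receptor gene Fgfr2 had 1.84 and 4.34 FPKM, the ligand gene Fgf4 had 48.99 and 50.2, and Etv5, an FGF target and the most abundant of the list, had 116 and 93.3. Pdgfa, a ligand of Pdgfra, had 19.8 and 14.3 FPKM.

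Markers of other cell types that could carry type IV collagen or Pdgfra were read in the same libraries. Of 14 fibroblast markers, 6 were measured and the smooth muscle genes Acta2 (1.86 FPKM in WT and 9.84 in TetTKO) and Tagln (8.59 and 26.4) were at least 2-fold higher. The summed level of that list was 132 and 153 FPKM, most of it Vim at 117 and 109. Of the fibrillar and other collagens on the list, Col3a1 had 0.08 and 0.74 FPKM, Col1a2 0.12 and 0.40, Col1a1 0.07 and 0.19, Col6a1 0.03 and 0.09, and Col5a1 1.02 and 2.22. Twist1, a mesenchymal transcription factor gene, had 1.33 and 2.81, while Thy1 had 1.29 and 0.96 and Pdgfrb 0.32 and 0.29. Lum was listed at 0 in both libraries, Dcn had 0 and 0.04, and Postn 0.02 and 0.04. Several of these low values differed by ratios as large as the members'. Of 10 endothelial genes, 3 were measured and none differed 2-fold, with a summed level of 11.3 and 14.9 FPKM. Pecam1, which stem cells also express, made up 6.55 and 8.79 of it, while Tek had 1.29 and 2.71 and Esam 2.79 and 2.22. Flt1 had 0.03 and 0.21, Cdh5 0.02 and 0.07, and Emcn was listed at 0 in both. Of 14 trophoblast genes, 8 were measured and 6 stood higher, and Gcm1 alone passed 2-fold (0.15 and 1.41 FPKM). Krt8, a keratin of primitive endoderm as well, was the most abundant at 18.5 and 33.1, and the list summed to 51.1 and 80.7. Of 14 genes of the primitive streak and definitive endoderm, 4 were measured. Eomes (0.42 and 1.36 FPKM) and T (0.57 and 1.22), transcription factor genes of the streak, stood higher by less than 2-fold on the log2(FPKM + 1) scale, with log2 differences of 0.73 and 0.50, close to those of Sox17 and Gata4. Fgf17 had 14.96 and 8.02, and Trh was at least 2-fold lower (839 and 281 FPKM). That list summed to 858 and 294 FPKM, nearly all of it Trh, with Cer1 at 0.02 and 0.03. The part of these cell types in the members' differences was not tested.

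Methylation was then read over each gene interval and 20 kb on either side, in windows of 1 kb with at least 5 listed CpGs. The intervals themselves were on average less methylated in TetTKO, as were genes at large. Of the 10 intervals, 9 were lower, from -7.59 points for Cubn (79.4% in WT and 71.8% in TetTKO) to -0.612 points for Sox7, and the median of the 10 was -2.68 points against -2.91 over 20475 genes. Sox17 was the exception, at 6.33% and 9.28%, and its interval was the least methylated of the members. The direction at Sox7 depended on the weighting. As a share of read calls its interval had 42.7% in WT (exact 95% interval 39.5 to 46.0) and 53.0% in TetTKO (49.9 to 56.1), which is 10.3 points higher. Dab2 had 80.02% and 73.4%, Col4a2 74.1% and 69.9%, Col4a1 71.7% and 68.4%, Pdgfra 68.4% and 64.9%, and Lama1 79.8% and 77.8%. Gata4 (67.2% and 66.4%) and Gata6 (42.1% and 41.4%) differed by less than 1 point.

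Around the low-methylated ends of the genes the direction was the opposite. The expression tables give no strand, so both ends of each interval were read, from 1000 bp outside to 500 bp inside, and 8 ends were under 20% in WT with at least 10 CpGs. Over this stretch all 8 were higher in TetTKO, by a median of 5.82 points, and those of Col4a1 and Col4a2 share CpGs. The 13982 such ends of all genes had a median of 1.21 points, so most of them were higher too. The smallest difference of the 8, 0.486 points at Sox7, was above that of only 32.3% of such ends. With only 500 bp outside, 5 of the 8 were higher and the median was 2.21 points. Over CpGs with coverage of at least 10, 7 were higher, and the Gata4 end, with 1 such CpG, was at 0% in both libraries. The median over all genes was not computed for either of these settings. The lower-coordinate end of Pdgfra had 8.12% in WT and 23.8% in TetTKO over 33 CpGs, more than 97.2% of low-methylated ends. Pooled over reads it had 8.82% of 272 calls in WT, with an exact 95% interval of 5.74 to 12.8, and 24.1% of 274 calls in TetTKO, with 19.1 to 29.6. These intervals do not overlap. They cover counting error only, and a read counts once for each CpG it covers. The higher-coordinate end of Sox17 had 5.06% and 18.1% over 53 CpGs, above 95.5% of such ends, and the lower-coordinate end of Lama1 had 13.6% and 25.2% over 35. Gata6 (lower-coordinate end, 0.515% and 6.90%, 41 CpGs) and Gata4 (higher-coordinate end, 1.43% and 6.70%, 74 CpGs) showed smaller differences from a lower level. For these 4 ends, too, the read intervals of the libraries did not overlap.

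The remaining low-methylated ends were close to the background. Sox7 had 3.93% in WT and 4.41% in TetTKO over 89 CpGs. The end of Col4a1 had 2.01% and 4.29% over 92 CpGs and the facing end of Col4a2 3.31% and 5.53%, and these ends share CpGs, since the genes lie 2 bp apart. The read intervals of the libraries overlapped at all 3 ends. These were the 3 ends whose direction depended on the stretch taken. With 500 bp outside the interval, Sox7 was at -1.41 points and Col4a1 and Col4a2, then the same 65 CpGs, at -0.137. In that stretch Gata6 was at 1.76 points and Lama1 at 2.65, smaller than over the longer one, and Pdgfra was at 20.4 and Sox17 at 20.3. The opposite ends of all these genes were methylated in WT, from 44.6% for Sox17 to 91.5% for Lama1.

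**Figure D3:**
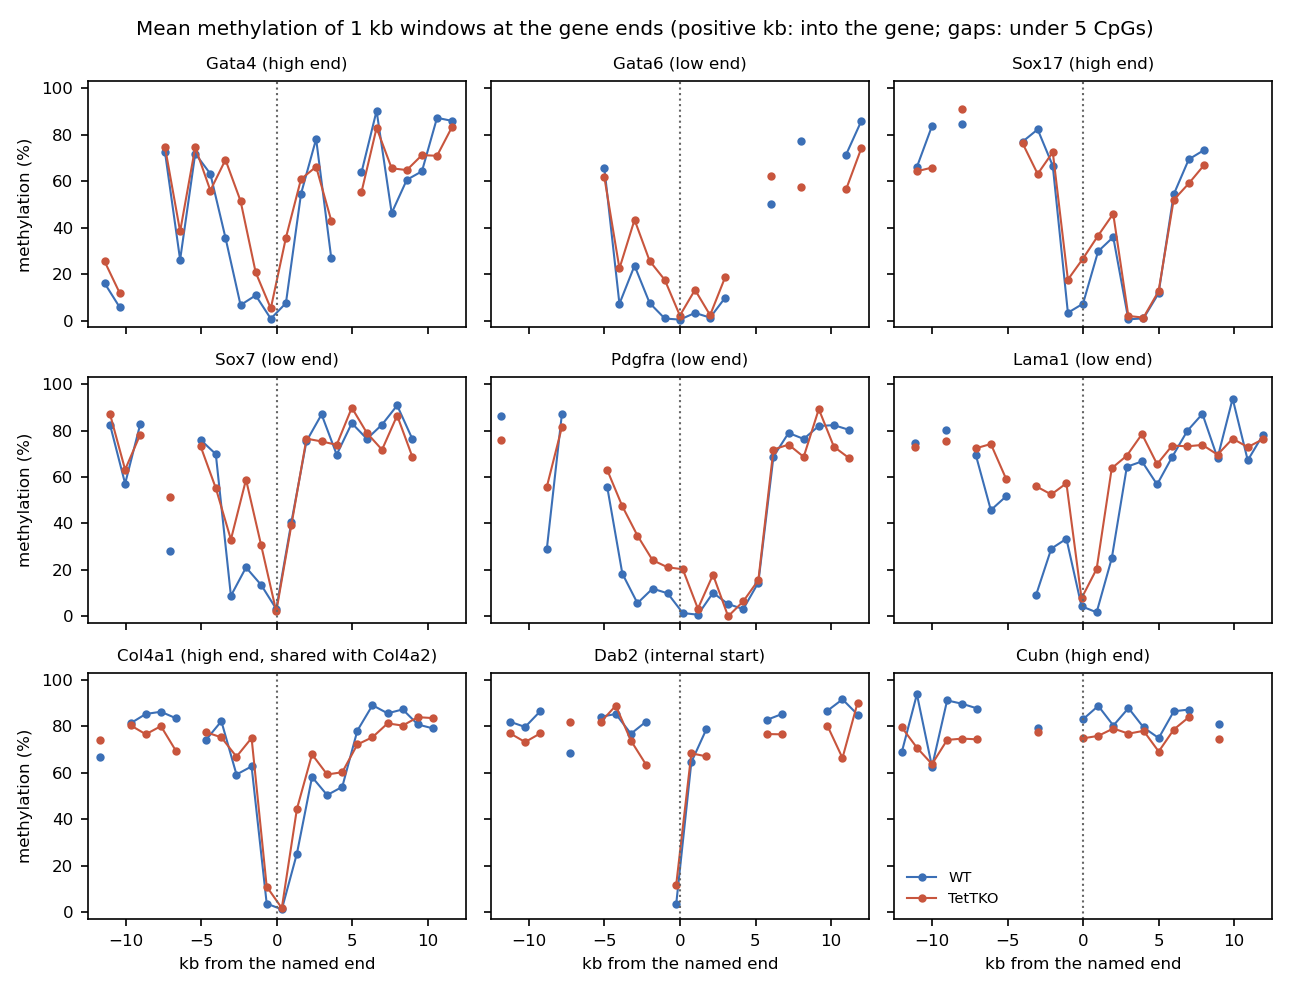
Mean methylation of 1 kb windows (y axis, percent) against the distance in kb from the low-methylated end, or from the start site for Dab2 and the start end for Cubn (x axis, positive into the gene), in WT (blue) and TetTKO (red), 1 library each, with breaks where a window had under 5 CpGs. Between 1 and 3 kb outside the Gata4, Gata6, Pdgfra, Sox7 and Lama1 ends every red point lies above its blue point, farther out the order is mixed, and Cubn is methylated throughout in both.

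Means over the 20 kb outside several of these ends were higher as well. In the 20 kb outside the low-methylated end, Pdgfra had means of 39.9% and 51.8%, and the difference was above that of 99.6% of the 13982 such flanks. Gata6 had 25.4% and 36.1% (above 99.3%), Gata4 29.95% and 39.0% (above 98.7%), Lama1 61.3% and 68.9% (above 97.4%) and Sox7 46.2% and 51.9% (above 94.3%). The means are over CpGs, so windows with many CpGs weigh most. At Gata6 the windows centred 1.01 to 4.01 kb outside were 15.2 to 19.8 points higher. Those centred 5.01 to 20.0 kb outside ran from -4.79 to 3.37 points. Sox17, at 46.3% and 46.8%, did not share the higher mean, though its window centred 1.01 kb outside had 3.35% and 17.6%. The collagen genes did not share it either, at 56.5% and 54.9% for Col4a1 and 57.6% and 58.7% for Col4a2. Their flanks are each other's gene bodies. The median over such flanks of all genes was -1.82 points. On the other side of the same 8 genes the flanks were all lower, from -7.51 points for Sox7 to -0.177 for Pdgfra.

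Single windows showed where the differences lay. Over the 921 distinct windows of the member loci the median difference was -4.80 points, against -5.79 over 1223855 windows of the genome. Of these 921, 7 were at least 30 points higher in TetTKO (0.760%) and 4 at least 30 points lower (0.434%), close to the genome's 0.67% and 0.638%. The 7 higher windows lay at Gata4, Lama1, Sox7 and Cubn. Outside the low-methylated end of Gata4, the window centred at 2.40 kb (chr14:63866000-63866999) had 6.66% in WT and 51.5% in TetTKO over 22 CpGs. By reads it had 15 methylated of 210 calls in WT, an exact 95% interval of 4.05 to 11.5%, and 72 of 144 in TetTKO, an interval of 41.6 to 58.4%. The next window outward, at 3.40 kb, had 35.7% and 69.3% over 23 CpGs. The third Gata4 window lay beyond the far end, within the interval of the neighbouring repair gene Neil2 (chr14:63811000-63811999), with 37.7% and 68.4%.

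At Lama1 the higher windows lay on both sides of the low-methylated end. The one 3.105 kb outside (chr17:68043000-68043999) had 9.35% and 56.0%, and the one 1.90 kb inside (chr17:68048000-68048999) had 25.0% and 63.8%, over 5 and 9 CpGs. Sox7 had a window 2.04 kb outside its low-methylated end with 21.1% and 58.9% over 9 CpGs. The seventh was within Cubn, 78.0 kb from its start, with 31.3% and 70.4% over 6 CpGs. The 4 windows that were lower by 30 points were all inside intervals, rested on 5 or 6 CpGs each, and had at least 83.9% in WT. They were found in Dab2 (98.5% and 64.6%, 95.2% and 61.0%), Cubn (88.3% and 55.7%) and Pdgfra (83.9% and 52.4%). The loci of Gata6, Sox17, Col4a1 and Col4a2 held no window past 30 points either way.

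With 10 or more CpGs in a window, the largest positive difference varied widely between members. It was 29.1 points at Pdgfra, 2.82 kb outside its low-methylated end (5.67% and 34.8%), and 19.8 points at Gata6, 3.01 kb outside (23.6% and 43.4%). Sox17 had 19.5 points across its higher-coordinate end (7.25% and 26.7%), Col4a1 20.8 points inside the gene, Col4a2 19.3 points, and Dab2 8.27 points at its internal start. Sox7 had 24.3, Lama1 24.7, Cubn 26.9 and Gata4 44.8 points. The largest negative differences spanned less, from -22.9 points in Col4a2 to -11.8 points in Gata6, with -21.6 in Col4a1, -22.7 in Dab2, -20.9 in Cubn, -20.5 in Gata4, -17.7 in Pdgfra, -17.0 in Lama1, -12.9 in Sox7 and -11.9 in Sox17.

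Windows with almost no methylation in WT were followed as a group. The member loci held 35 windows under 10% in WT, and 32 of them were higher in TetTKO, with means of 4.71% and 16.2%. All 32127 such windows of the genome had 3.15% and 8.75%, and 85.5% of them were higher. Of the 35, 13 (37.1%) were under 10% in TetTKO as well, against 67.1% over the genome. Picking windows by a low WT value favours a higher value in the other library, in the members and the genome alike. With the class set on odd-numbered CpGs and the difference taken on even-numbered ones, the members differed by 10.7 points and the genome by 5.38. Neighbouring CpGs can lie on the same reads of the same library, so this split does not fully remove the selection. With windows chosen as under 10% in TetTKO instead, 13 were left, and the differences were 1.00 and 1.37 points. That choice leaves out windows above 10% in TetTKO, so no rise can reach 10 points, and it favours a higher value in WT.

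The CpG-densest stretches differed least. Among the 35, the 10 windows with at least 50 CpGs had 2.51% in WT and 6.32% in TetTKO, the 20 with 16 to 49 CpGs had 5.36% and 18.7%, and the 5 with fewer had 6.46% and 25.6%. The genome showed the same order, at 1.16% and 2.36%, 3.25% and 8.01%, and 4.57% and 15.5%. In Gata6 a window with 72 CpGs, 1.99 kb inside the gene, had 1.25% and 2.32%, while the window 1.01 kb outside with 24 CpGs had 0.880% and 17.5%. In Gata4 the window across the end, with 58 CpGs, had 0.778% and 5.20%, and the one beside it, 0.597 kb inside with 30 CpGs, had 7.49% and 35.7%. In Sox17 the windows with 80 and 53 CpGs inside the gene had 0.930% and 1.26%, and 0.524% and 1.98%. The Sox7 window across the end, with 68 CpGs, had 3.19% and 2.10%. Among the windows of at least 50 CpGs the largest difference was at Gata6, 4.01 kb outside with 54 CpGs, at 7.22% and 22.4%.

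**Figure D4:**
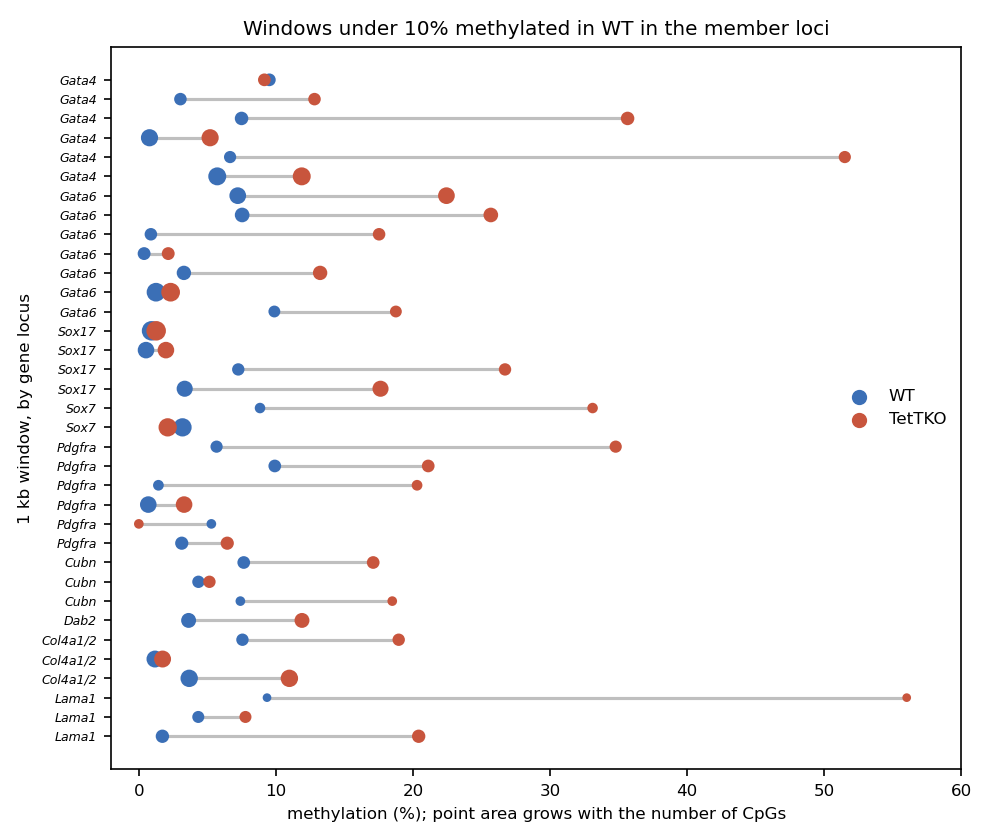
Methylation (x axis, percent) in WT (blue) and TetTKO (red) of the 35 windows of 1 kb under 10% in WT, 1 row per window grouped by gene locus, with point area growing with the number of CpGs. The longest bars are a Gata4 window (6.66% and 51.5%) and a Lama1 window (9.35% and 56.0%), and the largest points, the CpG-dense windows, mostly stay near 0.

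Of the promoters printed above, that of Cubn was methylated, and those of Col4a1 and the internal Dab2 start were almost free of methylation. The Pdgfra promoter had too few calls to settle whether the libraries differ. In the 300 bases around the Pdgfra start, which lies 40 bases outside the deposited interval, 0 of 19 read calls were methylated in WT, an exact upper limit of 17.6%. In TetTKO 7 of 28 were, or 25.0%, with an interval of 10.7 to 44.9. Only 3 of its 5 CpGs had values, and the intervals overlap, so this stretch alone does not separate the libraries. Around the Cubn start all 5 CpGs had values, with 50 of 56 calls methylated in WT and 51 of 66 in TetTKO. As shares these were 89.3% (exact 95% interval 78.1 to 96.0) and 77.3% (65.3 to 86.7). Cubn RNA was 4.14 times as high in TetTKO while its RefSeq start remained mostly methylated. The Col4a1 start had 1 methylated call of 200 in WT and 1 of 240 in TetTKO, over 29 of its 37 CpGs, and the Col4a2 start had 0 of 179 and 0 of 163 (exact upper limits 2.04% and 2.24%). The members with the largest log2 difference in RNA thus had start sites with next to no methylation in either library.

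Dab2 had both states within a single gene. Its upstream start coincides with the lower-coordinate end of the interval and holds only 2 CpGs, with 8 of 12 calls methylated in WT and 16 of 20 in TetTKO. Its internal start, 87.0 kb inside, holds 19 CpGs, of which 15 had values, with 1 of 136 calls methylated in WT and 4 of 127 in TetTKO. Their exact intervals, 0.0186 to 4.03% and 0.865 to 7.87%, overlap. The 1 kb window around that start had 3.63% and 11.9% over 40 CpGs. The ends of the Dab2 interval, at 84.9% and 87.2% in WT, therefore miss its low-methylated start. A gene-level FPKM does not show which start the RNA came from.

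The 6 promoters were searched on both strands for GATA hexamers and a SOX hexamer. The GATA hexamers were AGATAA together with AGATAG, besides TGATAA together with TGATAG. The SOX hexamer was ACAATG. Of the 6 promoters, 1 held a GATA hexamer, the upstream start of Dab2, where TGATAA begins 179 bases before the start and AGATAA 14 bases after it. Over all 32851 promoters of the table, 29.8% held one. ACAATG occurred in none of the 6 and in 12.6% of all promoters. The hexamers describe these 300-base windows only.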

How the data were processed

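Per the submitters' processing notes, Trim Galore, Bismark 0.7.9, Bowtie, SAMtools, TopHat2 2.0.2 and Cufflinks 2.0.2 were used with build mm9. Their settings and the annotation were not given in the sources used here. Each CpG of the deposited methylation files has a fraction and 2 read counts (methylated, total), with coverage of at least 5. The deposited expression files give FPKM by the authors, rounded to 2 decimals. Per the labels' protocols, RNA was depleted of ribosomal RNA and read as single 50 bp reads, and bisulfite libraries as 110 bp pairs.

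From these, rows of 1 symbol were summed, and genes of at least 1 FPKM in either library were compared on log2(FPKM + 1), called at 2-fold by size alone. Methylation is the mean over CpGs. Windows were called at 30 points. Intervals on read calls are exact (Clopper-Pearson, 95%). Starts are given 1-based. Pseudocounts, filters, centring, coverage, window grid and end length were varied. Promoters were placed where every listed CpG of the window lay on a CpG of the sequence and 1 placement had the most, or, for the upstream Dab2 start, where 1 of 3 equal placements lay at an interval end. Python 3.11.15, numpy 2.4.6, pandas 2.3.3 and scipy 1.17.1 were used, and the calls were tried on simulated data. RNA changes there were set only in genes of at least 5 FPKM in WT, so the range of most members was not covered. Window changes there were set past the 30-point call. The members and lists were chosen with earlier results of these data known. By rule the text names all members, the 2-fold genes and the most abundant gene of each list, windows past 30 points and each member's largest difference in either direction over at least 10 CpGs. Other listed genes, other cell type markers, neighbours, windows under 10% and dense windows were named after their values were seen.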

Additional observations from a re-analysis of the deposited data

How the results depend on the processing

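With 1 library per group, replicate error could not be measured, and FPKM without depth gives no counting error. No paired analysis was possible because each group has 1 library. The number of members at least 2-fold higher was 4. It was 8 with a pseudocount of 0.1 FPKM, against 4.36% of genes with at least 1 FPKM in a library. It was 1 with 5 FPKM (0.364%) and 2 among genes of at least 1 FPKM in WT. The members added at 0.1 FPKM (Gata4, Gata6, Sox17 and Dab2) entered by their TetTKO value alone. The share among all genes that entered in this way was not computed at that pseudocount. The median log2 difference of the members, 0.85, was 1.62, 0.36 and, after centring, 0.87. No setting made a member lower. Member windows at least 30 points higher and lower were 7 and 4. With at least 10 CpGs they were 3 and 0 (1.06% and 0.0804% of all windows), and with coverage of at least 10 they were 2 and 0 (1.24% and 0.31%). On a grid shifted by 500 bp they were 9 and 2 (0.674% and 0.643%). At 20 points they were 22 and 40 (2.4% and 6.41%), and after centring on the genome's median 17 and 0 (1.43% and 0.132%). How many member windows were left with more CpGs, with more coverage or on the shifted grid is not given. The member counts under those settings therefore cannot be read as shares. The median interval difference, -2.68 points, was -4.21 with coverage of at least 10, and the median of the 8 low-methylated ends, 5.82 points, was 10.6 with that coverage, where the Gata4 end held 1 CpG and was 0, and 2.21 with 500 bp outside, where Sox7 was -1.41 and Col4a1 and Col4a2 were -0.137. As a share of read calls the Sox7 interval was 10.3 points higher, against -0.612. Windows under 10% in WT, at 11.5 points, differed by 10.7 with odd and even CpGs, 1.00 with classes from TetTKO, which leaves out windows above 10% in TetTKO, 10.6 without Gata4 and 10.4 without Lama1, alternatives chosen after seeing the data. The cause of the other shifts was not tested.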

Other observations

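The genes within 20 kb of the members did not share a direction. Rab20, an endosomal GTPase gene 4689 bp beyond Col4a2, had 0.62 FPKM in WT and 2.69 in TetTKO, a ratio of 4.34 that matches those of the neighbouring collagen genes in direction. Neil2, a DNA glycosylase gene 5389 bp from Gata4, had 3.35 and 1.57 FPKM, a ratio of 0.469. Beside Cubn, Rsu1 had 22.8 and 17.0 FPKM and Trdmt1 5.18 and 5.43. C9, beside Dab2, was listed at 0 in both libraries, and Gm19583, beside Pdgfra, had 0.01 in both.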
